A study of Mus musculus with 6 samples.

Results

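Small nucleolar RNAs (snoRNAs) and small Cajal body RNAs (scaRNAs) were read by 55 of the 16311 probe sets that the array annotation pairs with 1 gene symbol, in presomitic mesoderm of control and Taf10 mutant mouse embryos. The members are the probe sets whose only symbol starts with Snord, Snora or Scarna followed by a digit. They stand for 53 genes, since Snora21 and Snora3 each have 2 probe sets. By class, 30 read box C/D snoRNAs, 22 read box H/ACA snoRNAs and 3 read scaRNAs.

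Presomitic mesoderm, the unsegmented tissue that forms somites at the tail of the embryo, was dissected at embryonic day 9.5 from embryos with 17 to 19 somites, and each array read a pool of 3 tissues. The 3 control pools came from embryos labelled wild type, with the genotype Taf10Flox/+ or Taf10flox/flox, so the controls also carry at least 1 floxed allele. The 3 mutant pools came from TCre/+;Taf10flox/flox embryos. T-Cre places the recombinase under control of the T (Brachyury) promoter, active in the primitive streak and the mesoderm that leaves it, so cells of another origin in the dissected tissue would keep the gene. TAF10 is a subunit of TFIID, which brings RNA polymerase II to promoters, and of the coactivator SAGA, and the comparison asks how expression differs when it is deleted. The pools are labelled as biological replicates; in pooled tissue, fewer cells of a type and less RNA per cell cannot be told apart.

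Box C/D snoRNAs assemble with fibrillarin and guide methylation of the ribose of ribosomal RNA, while box H/ACA snoRNAs assemble with dyskerin and guide conversion of uridine to pseudouridine. ScaRNAs do the same for spliceosomal RNAs in Cajal bodies. A few of these RNAs, among them the box C/D RNAs U3 and U8, serve cleavage of the ribosomal RNA precursor and have their own promoters. Most mammalian snoRNAs lie in introns of host genes, and are released when the spliced intron is opened and trimmed. Many hosts encode ribosomal proteins or translation factors, and others are long non-coding RNAs whose spliced product is short-lived. A probe set placed in such an intron reads the mature snoRNA and unspliced host RNA alike, and the array cannot tell them apart.

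The arrays had median intensities of 307.9 to 317.5, and the root mean square distance from the group mean was largest for mutant 3, at 0.189 on the log2 scale, with the remaining 5 between 0.0779 and 0.115. Xist, the RNA of the inactive X chromosome in female cells, stood at 6.32 on the log2 scale in control 3 and at 11.35 to 12.57 on the other arrays. Taf10 has 2 probe sets, with log2 changes of -0.37 (limma adjusted p = 0.0400) and 0.11 (limma adjusted p = 0.530), and which part of the transcript they read is not known here. The one that fell, 10365288, is numbered near Eef2 of chromosome 10, and the other, 10566525, near Rps3 of chromosome 7. Whether each lies at the place of Taf10 was not checked, and either may read another copy. Of 7 measured presomitic markers, Tbx6 and Hes7 rose and 0 fell, while of 20 markers of somite, endothelium, blood, neural tube, ectoderm and gut, limma called 0, with 1 higher and 1 lower at an unadjusted p under 0.05. Blood markers (3 of 4 measured) summed to intensities of 6596 to 15502 in controls and 2802 to 11591 in mutants, lowest in mutant 3, and endothelial markers (4 of 4) to 473 to 1326 and 375 to 966. Gata1, which defines the red cell lineage, read 6.35 to 6.70 on all arrays. The part of these cells in the results below was not tested.

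Of the 55 probe sets, 22 fell, 0 rose and 33 did not pass, at an adjusted p under 0.05 in limma's moderated test over all 16311 probe sets. Among all probe sets, 3.08% fell, 2.88% rose and 5.96% changed either way. At an unadjusted p under 0.05 limma gave 37 members lower and 0 higher, against 11.4% of all probe sets lower. A negative change, called or not, was found for 52 of the 55, against 42% of all probe sets. The median change, mutant minus control, was -0.61 on the log2 scale, or 65.7% of control, against 0.03 over all probe sets. The 3 mutant values lay below all 3 control values for 37 members, an arrangement found in 15.7% of all probe sets, and 0 members had all mutant values above the controls (16.6% of all probe sets). For such a member the exact two-sided permutation test gives p = 0.1, the smallest that 3 against 3 allows.

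**Figure D1:**
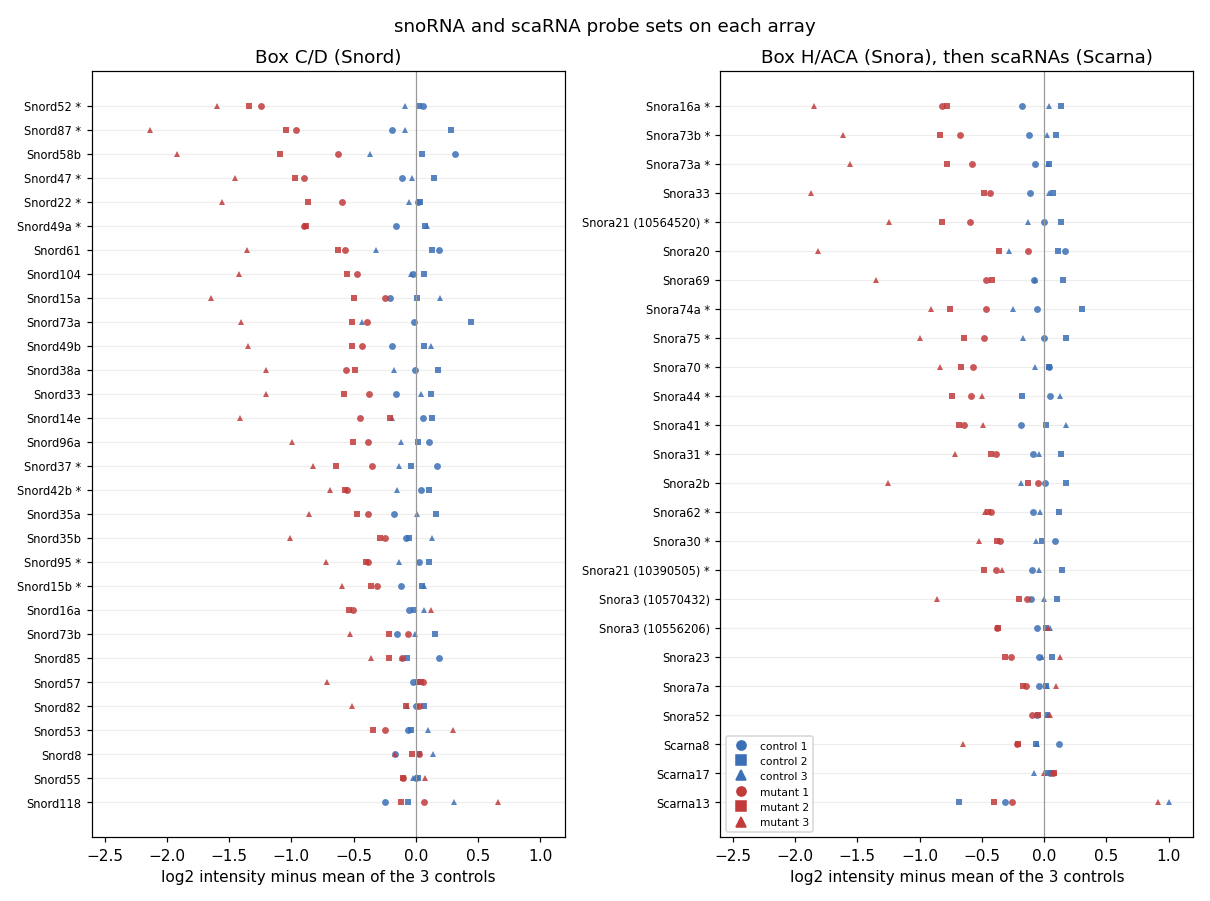
Log2 intensity of each of the 55 probe sets in each control pool (blue) and mutant pool (red), shown relative to the average control (x axis); the left panel holds box C/D and the right box H/ACA and scaRNA probe sets, symbols mark the replicate number, and stars an adjusted p below 0.05. Mutant points lie left of all controls for 37 probe sets, the furthest being Snord52 at a mean of -1.39. Others lie near 0 and overlap the controls, such as Snora52 at -0.03.

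The position of each probe set was checked against its neighbours in the numbering of the array, counting the 10 on each side. For 51 members most of the 20 neighbours lay on the chromosome of the named gene in the RefSeq table of assembly GRCm38.p6. The other 4 were Scarna17 and Snord118 (0 of 20 each), probe set 10564520 of Snora21 (0 of 20) and probe set 10570432 of Snora3 (1 of 20), which may read other copies. Of the 51, 21 fell, and 50 had a negative change; the exception was Scarna13. The number of calls depended on single arrays, since leaving out control 1, 2 or 3 left 2, 3 and 5 members that fell, and leaving out mutant 1, 2 or 3 gave 21, 5 and 36, out of 55. Between 51 and 53 of the 55 changes were negative in each of these fits. Over all probe sets, 0.166% to 6.72% were called lower in them.

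Genes that hold the snoRNAs were taken from a list of known hosts, and each was kept because its interval in the RefSeq table wholly contains the snoRNA; that table gives no strand. This gave a host for 53 of the 55 probe sets, and 42 hosts in all. Long non-coding hosts held 13 members, ribosomal protein genes 22, genes for elongation factors and other proteins tied to translation 5, and other protein-coding genes 13.

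Members in long non-coding hosts showed the lowest values, with a median of -0.97, or 51.0% of control, and 10 of 13 fell. Snord52, a box C/D snoRNA of the host 1110038B12Rik, read 9.20, 9.17 and 9.06 on the log2 scale in the control pools and 7.90, 7.80 and 7.54 in the mutant pools. The groups lay more than 1 log2 unit apart, and the change of -1.39 (SE 0.10, limma adjusted p = 0.00186) leaves 38.0% of control. Snord87, held by Snhg6, read 8.48, 8.95 and 8.58 in controls and 7.71, 7.63 and 6.53 in mutants. Mutant 3 was far below the other mutants here, and the change was -1.38 (SE 0.29, limma adjusted p = 0.0369). Snord47 of Gas5, a growth arrest-associated non-coding RNA, read 10.54, 10.80 and 10.62 against 9.76, 9.69 and 9.20 (log2 change -1.11, SE 0.15, limma adjusted p = 0.00878). The 4 probe sets of Gas5 itself all fell, with log2 changes from -2.32 to -1.07, and may include sequence of its other snoRNAs. Probe set 10351035 of Gas5 had the tightest values, 10.26, 10.32 and 10.32 in controls and 8.35, 8.48 and 8.37 in mutants.

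Snora73a and Snora73b, box H/ACA RNAs that act in cleavage of the ribosomal RNA precursor, lie in Snhg3 and gave nearly the same readings. Snora73b read 10.65, 10.86 and 10.78 in controls and 10.09, 9.93 and 9.15 in mutants (log2 change -1.04, SE 0.22, limma adjusted p = 0.0360). Snora73a read 10.72, 10.83 and 10.83 against 10.22, 10.01 and 9.24 (log2 change -0.97, SE 0.22, limma adjusted p = 0.0438). As near-identical copies they may share probes, so they are not independent. Snora16a, in Snhg12, read 10.70, 11.01 and 10.91 against 10.05, 10.09 and 9.02 (log2 change -1.15, SE 0.26, limma adjusted p = 0.0448). Its neighbour in that host, Snora44, read 9.47, 9.24 and 9.55 against 8.84, 8.68 and 8.92 (log2 change -0.61, SE 0.10, limma adjusted p = 0.0169). Mutant 3 was the lowest mutant for Snora16a and the highest for Snora44.

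Snord22, a box C/D RNA of Snhg1, read 9.08, 9.09 and 9.003 in controls and 8.47, 8.19 and 7.51 in mutants (log2 change -1.003, SE 0.21, limma adjusted p = 0.0368). Snord49a, of the host 2410006H16Rik, read 9.92, 10.16 and 10.17 against 9.18, 9.20 and 9.19, the most even mutant values of these members (log2 change -0.89, SE 0.08, limma adjusted p = 0.00343). Snord49b of the same host read 12.08, 12.34 and 12.39 against 11.84, 11.76 and 10.92 and did not pass (log2 change -0.76, 95% interval -1.29 to -0.24, limma adjusted p = 0.0939). Snora74a of Snhg4 fell by 0.71 on the log2 scale (SE 0.16, limma adjusted p = 0.0417), from 9.35, 9.72 and 9.17 to 8.95, 8.66 and 8.51. Snord104 of Gm36220 had mutant values of 10.85, 10.78 and 9.90 below controls of 11.30, 11.39 and 11.29, and did not pass (log2 change -0.82, limma adjusted p = 0.0777).

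Many genes of the translation machinery, snoRNA hosts among them, start their transcripts with a C and a run of pyrimidines, the terminal oligopyrimidine motif. Start sequences from RefSeq (GRCm38.p6) were found for 33 of 42 hosts. As printed here, 10 bases before the annotated start are followed by 20 bases from it, in the direction of transcription, and capitals mark each run of a C and at least 4 further bases that are C or T, whose C lies within 5 bases of the start. The first 7 belong to hosts with at least 1 snoRNA that fell (Snord49b and Snord96a did not pass), and Rplp2 holds Snora52, whose reading was among the least different. These hosts are a selection in which most starts carry a run, whereas 7 of 16 hosts of a snoRNA that fell do. Hosts of such snoRNAs without a run, Eef2, Rpl10 and Tpt1 among them, are not printed.
1110038B12Rik (Snord52), chr17:34952449-34952478, minus strand: gcacacgggtCTCTTTgtgcacccgcccac
Gas5 (Snord47), chr1:161035156-161035185, plus strand: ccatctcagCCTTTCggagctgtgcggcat
Snhg12 (Snora16a, Snora44), chr4:132308668-132308697, plus strand: ttctcagtCCTTTCTCgcttcatccgcggt
Snhg3 (Snora73a, Snora73b), chr4:132353667-132353696, minus strand: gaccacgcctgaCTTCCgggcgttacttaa
2410006H16Rik (Snord49a, Snord49b), chr11:62602867-62602896, plus strand: cgccgtCTTTCTCTgcggccatcatgggat
Snhg1 (Snord22), chr19:8723477-8723506, plus strand: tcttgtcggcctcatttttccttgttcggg
Rack1 (Snord95, Snord96a), chr11:48800350-48800379, plus strand: gccgctCTTTCTTTTTCTCCacagggtcgt
Rplp2 (Snora52), chr7:141447641-141447670, plus strand: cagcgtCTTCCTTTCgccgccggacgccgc

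Such a run, searched on the transcribed strand only, was found at a start of 15 of the 33 hosts (45.5%) and of 21.2% of all 27025 genes with a start in the table. It stood at 7 of 16 hosts of a snoRNA that fell (43.8%) and at 8 of 17 hosts of snoRNAs that did not pass (47.1%). Snhg1 and a further annotated start of Gas5 have no match, which says only that these letters are not in this window. The letters and the window were chosen after the sequences were seen.

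Members held by ribosomal protein genes had a median of -0.54, and 6 of 22 fell. Snora70, in Rpl10, read 9.47, 9.47 and 9.36 in controls and 8.86, 8.76 and 8.59 in mutants. The mutant values were close together and well below the controls (log2 change -0.69, SE 0.08, limma adjusted p = 0.00698). Snord42b, in Rpl23a, read 10.28, 10.34 and 10.09 against 9.68, 9.67 and 9.55 (log2 change -0.60, SE 0.08, limma adjusted p = 0.0103). Snora62, in the laminin receptor and ribosomal protein gene Rpsa, read 7.85, 8.06 and 7.91 against 7.52, 7.49 and 7.47 (log2 change -0.45, SE 0.07, limma adjusted p = 0.0154). Snord15b, in Rps3, fell by 0.42 (SE 0.09, limma adjusted p = 0.0423). Mutant 3 did not stand apart for Snord42b or Snora62.

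Snora21, of Rpl23, fell by both probe sets but not equally. The probe set at the gene's own place in the array read 12.59, 12.83 and 12.65 in controls and 12.30, 12.21 and 12.35 in mutants (log2 change -0.40, SE 0.08, limma adjusted p = 0.0342). The other read 9.27, 9.41 and 9.14 against 8.68, 8.46 and 8.03 (log2 change -0.89, SE 0.16, limma adjusted p = 0.0215). Snora3, of Rpl27a, passed by neither, at -0.24 (limma adjusted p = 0.260) and -0.40 (limma adjusted p = 0.238).

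Several members of ribosomal protein hosts missed the threshold by little. Snord58b, in Rpl17, had the largest such change, at -1.21 (SE 0.31, limma adjusted p = 0.0624), with 7.09, 6.82 and 6.40 in controls and 6.15, 5.68 and 4.85 in mutants. Values of Snord58b spread widely in both groups without meeting. Its intensity in mutant 3 was 28.8, close to the lowest on that array, 20.5. Snord35a, in Rpl13a, stood at -0.57 (limma adjusted p = 0.0524) and Snord38a at -0.75 (limma adjusted p = 0.0572). Snord33, also of Rpl13a, stood at -0.72 (limma adjusted p = 0.0745). Snora33 in Rps12 lay further from the threshold (limma adjusted p = 0.158). It read 8.47 and 8.43 in mutants 1 and 2 and 7.04 in mutant 3, against 8.79 to 8.98 in controls.

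A few members of these hosts gave nearly level readings. Snora52, in Rplp2, had the highest mean reading of all members and stood at 13.31, 13.39 and 13.40 in controls and 13.27, 13.31 and 13.41 in mutants (log2 change -0.03, 95% interval -0.19 to 0.12). Readings of different probe sets are not comparable as amounts. Snord55 stood at -0.04 (95% interval -0.21 to 0.12) and Snora7a, in Rpl32, at -0.07 (95% interval -0.27 to 0.12). For these 3 the interval excludes a fall as large as the members' median.

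Members in genes of translation factors and related proteins were evenly lower, with 4 of 5 called. Snora41, in the elongation factor gene Eef1b2, read 7.87, 8.07 and 8.23 in controls and 7.41, 7.37 and 7.57 in mutants (log2 change -0.61, SE 0.10, limma adjusted p = 0.0176). Snord37, in Eef2, which encodes the elongation factor that moves the ribosome along the mRNA, read 7.39, 7.18 and 7.08 against 6.86, 6.58 and 6.39 (log2 change -0.61, SE 0.13, limma adjusted p = 0.0374). Snora31, in Tpt1, read 7.997, 8.22 and 8.04 against 7.70, 7.66 and 7.37 (log2 change -0.51, SE 0.11, limma adjusted p = 0.0339). Snord95, in the ribosome scaffold gene Rack1, fell by 0.50 (SE 0.11, limma adjusted p = 0.0394), and Snord96a of the same gene missed the threshold at -0.63 (SE 0.15, limma adjusted p = 0.0543). All 5 had mutant values below every control.

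Members in other protein-coding hosts had a median of -0.36, and 2 of 13 fell. Snora75, in the nucleolin gene Ncl, read 9.49, 9.66 and 9.32 in controls and 9.01, 8.85 and 8.49 in mutants (log2 change -0.71, SE 0.14, limma adjusted p = 0.0309). Snora30, in the chromatin remodeller gene Srcap, read 8.67, 8.57 and 8.52 against 8.24, 8.21 and 8.07 (log2 change -0.42, SE 0.08, limma adjusted p = 0.0233). Snord61, in Rbmx, had the lowest mean reading of all members and missed the threshold (log2 change -0.85, SE 0.22, limma adjusted p = 0.0652). Snord38a and Snord58b were next lowest.

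Among those hosts, Snord57 of Nop56 read 12.68, 12.72 and 12.72 in controls, 12.76 and 12.75 in mutants 1 and 2, and 11.99 in mutant 3. Its change of -0.21 (limma adjusted p = 0.544) thus comes from 1 array. Snora20 of Tcp1 read 8.28 and 8.05 in mutants 1 and 2, within or next to the controls (8.13 to 8.57), and 6.59 in mutant 3. Snora2b of Kansl2 behaved alike, with 8.06 and 7.98 against 6.85. The U14 family member Snord14e of Hspa8, which acts in maturation of small-subunit ribosomal RNA, had a change of -0.69 (limma adjusted p = 0.189), with 10.03, 10.27 and 9.07 in mutants. Snord8 of Chd8 stood at -0.06 (95% interval -0.28 to 0.16) and Snord53 of Wdr43 at -0.10 (95% interval -0.46 to 0.27).

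The 2 members with no host on the list were Snord118 and Scarna17, and neither passed. In the RefSeq table Scarna17 does lie within the interval of Gm41774, which was not listed as a host. Snord118, the U8 RNA of large-subunit ribosomal RNA maturation, read 9.81, 9.99 and 10.36 in controls and 10.12, 9.94 and 10.72 in mutants (log2 change 0.20, 95% interval -0.29 to 0.69). Scarna17 read 10.68, 10.67 and 10.55 against 10.70, 10.71 and 10.63 (log2 change 0.05, 95% interval -0.11 to 0.20). Both are among the probe sets whose neighbours lie on another chromosome. Of the other scaRNAs, Scarna8 of Haus6 read 8.79, 8.61 and 8.62 against 8.46, 8.47 and 8.02 and did not pass (log2 change -0.36, SE 0.13, limma adjusted p = 0.143). Scarna13 of Snhg10 read 10.22, 9.85 and 11.54 against 10.28, 10.14 and 11.45 (log2 change 0.09, SE 0.47). Control 3 and mutant 3 were both high for Scarna13, and its sign turned without control 1, control 2 or mutant 3.

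The median change was -0.62 for box C/D and -0.61 for box H/ACA, with quartiles of -0.81 to -0.28 and -0.76 to -0.41. Calls numbered 9 of 30 for box C/D and 13 of 22 for box H/ACA, and 20 and 16 had mutant values wholly below the controls. The difference between the classes was not tested. Without mutant 3 the counts were 19 of 30 and 17 of 22, and without control 3 and mutant 3 they were 21 and 18. The share of all probe sets called lower rose as well, from 3.08% to 6.72% and 7% in these 2 fits. In mutant 3 the class medians stood at -0.94 and -0.85 below the control mean, against -0.38 and -0.43 in mutant 1 and -0.50 and -0.47 in mutant 2. Mutant 3 was the lowest mutant for 25 of 30 box C/D and 15 of 22 box H/ACA probe sets.

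**Figure D2:**
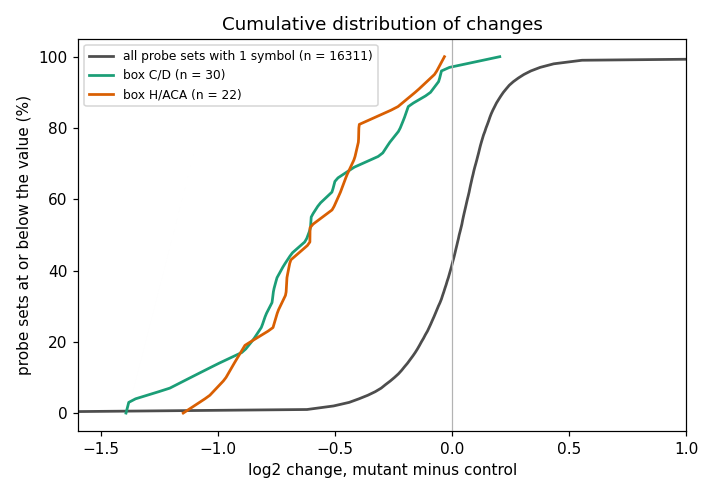
Share of probe sets (y axis, percent) whose log2 change, mutant minus control, is at or below the value on the x axis, for all 16311 probe sets with 1 symbol (grey), the 30 box C/D (green) and the 22 box H/ACA (orange) probe sets. Both snoRNA curves lie left of the grey one, with medians of -0.62 and -0.61 against 0.03.

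For 9 pairs of snoRNAs that share a host and have probe sets at the gene's own place, the difference of the pair was compared between genotypes by an exact two-sided permutation test over the 6 arrays. Snora75 fell in all mutants, whereas Snord82, also in Ncl, read 11.81, 11.87 and 11.74 in controls and 11.84, 11.73 and 11.30 in mutants (log2 change -0.19, SE 0.13). Snora75 minus Snord82 was -2.32, -2.21 and -2.42 in controls and -2.83, -2.88 and -2.81 in mutants, a shift of -0.52 with no overlap (exact p = 0.1, adjusted over the 9 pairs p = 0.3). Snora73b minus Snora73a, also without overlap, shifted by only -0.07.

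Of the others, 1 is not reported here and 6 overlapped between genotypes. Snord73a minus Snord73b, in Rps3a1, shifted by -0.50 (exact p = 0.3), since Snord73a stood at -0.77 and Snord73b at -0.27. Snora16a minus Snora44 shifted by -0.54 (exact p = 0.4), and only mutant 3, at 0.10 against 1.21 to 1.76 elsewhere, lay apart. Shifts of the remaining 4 were 0.13 for Snord49b minus Snord49a, -0.13 for Snord96a minus Snord95, 0.15 for Snord35a minus Snord33 and 0.38 for Snord15b minus Snord15a. With 3 against 3 arrays 0 of the 9 could pass.

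**Figure D3:**
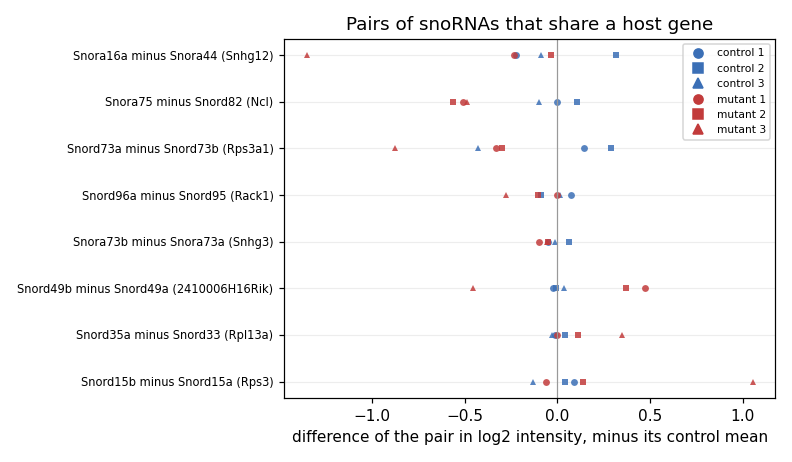
Difference in log2 intensity between the 2 snoRNAs of a pair that share the host gene in brackets, on each control (blue) and mutant (red) array, minus the mean of that difference in controls (x axis). The 8 pairs reported are drawn; red points lie apart from blue ones for Snora75 minus Snord82 (mean shift -0.52), and for Snord15b minus Snord15a mutant 3 alone is high.

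Host genes could be read by a probe set with 1 symbol at their own place for 21 of 42 hosts, which hold 25 of the members. Where several such probe sets existed the one with the highest mean reading was taken. Of these 25 members, 11 fell, and the host fell too for 4 of them: Snord47 with Gas5 (host log2 change -1.07, SE 0.14), both Snora21 probe sets with Rpl23 (-0.54, SE 0.11) and Snora62 with Rpsa (-0.48, SE 0.10). Probe set 10564520 of Snora21 lies away from its gene's place and may read another copy. The other Rpl23 probe set, also away from that gene's place, did not pass (-0.32, limma adjusted p = 0.0561). For the other 7 members the host did not pass by the probe set taken. Rbmx and Rpl27a fell where their snoRNAs, Snord61 and Snora3, did not pass.

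Some hosts that did not pass by the probe set at their own place held snoRNAs that fell. Tpt1 read 13.18, 13.13 and 13.24 in controls and 13.14, 13.18 and 13.45 in mutants (log2 change 0.07, 95% interval -0.14 to 0.29), while its Snora31 fell by 0.51. The 4 probe sets of Tpt1 ran from -0.25 to 0.07 with 0 calls. Rpl10 had a change of -0.21 (SE 0.06, limma adjusted p = 0.0945) beside -0.69 for Snora70. Of the 5 probe sets of Rpl10, which ran from -0.36 to 0.24, 2 fell, at -0.36 and -0.27, both away from the gene's place. Likewise 2 of 10 probe sets of Rpl23a fell, both away from its place. Ncl had -0.31 (SE 0.09, limma adjusted p = 0.0974) beside -0.71 for Snora75 and -0.19 for Snord82. Neither passed for Ipo7, at -0.47 (SE 0.12, limma adjusted p = 0.0591), and its Snora23, at -0.15 (SE 0.12), whose mutant values of 11.95, 11.90 and 12.33 lay on both sides of the controls at 12.17, 12.27 and 12.19. Of the 25, 13 had a more negative change than the host and 12 a less negative one, with a median difference of -0.04. Over these 25, which share the 6 arrays, Pearson's r between the changes of member and host was 0.49 and Spearman's rho 0.39, given as a description. Snord47 with Gas5 had the lowest values of both. The Gas5 probe set taken had the smallest fall of its 4, which ran from -2.32 to -1.07.

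**Figure D4:**
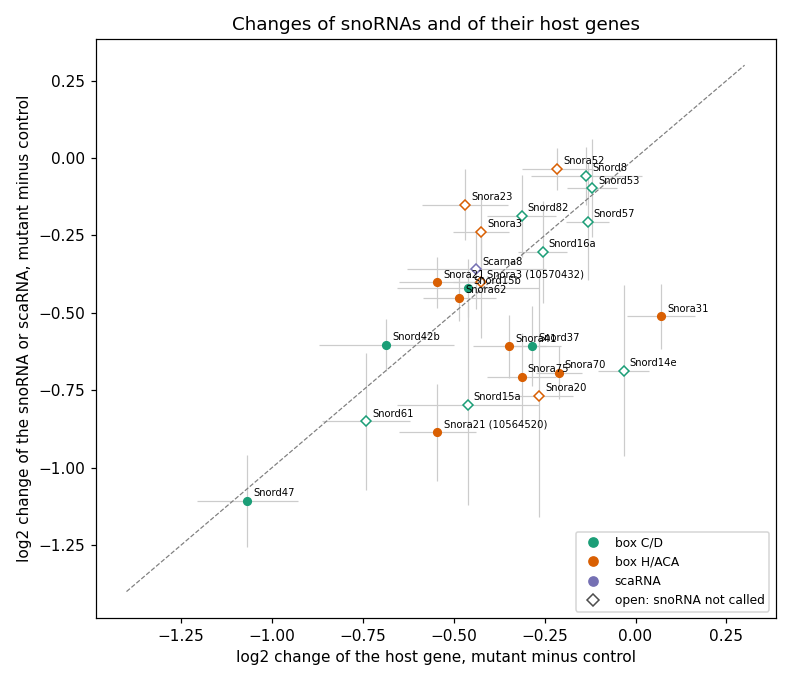
Log2 change, mutant minus control, of 25 snoRNA and scaRNA probe sets (y axis) against that of the host gene (x axis); bars are SE, colours give the class, open symbols are members that did not pass, the dashed line marks equal change and a probe set number marks a probe set away from its gene's place. Snord47 with Gas5 lies lowest, at -1.11 and -1.07, and Snora31 and Snord14e lie furthest below the line.

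Across the 55 members Spearman's rho of the change was 0.41 with the mean reading and 0.16 with the length of the RNA in RefSeq, both given as a description over members that share arrays. The 3 members lowest in mean reading, Snord61, Snord38a and Snord58b, had changes of -0.85, -0.75 and -1.21, and the highest, Snora52, -0.03. In mutant 3 the intensities of those 3 were 25.2, 29.3 and 28.8, close to the lowest on that array, 20.5.

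Genes for the proteins that carry, assemble and trim these RNAs had smaller changes. For comparison, 3.08% of all probe sets fell and 2.88% rose. Of 36 listed genes 35 were measured, by 40 probe sets, and 1 fell, 0 rose and 39 did not pass, with a median of -0.11. At an unadjusted p under 0.05 limma gave 9 of the 40 lower and 1 higher. A negative change was found for 33 of the 40, against 42% of all probe sets. The one that fell was Dkc1, the pseudouridine synthase dyskerin of box H/ACA particles, from 11.20, 11.33 and 11.22 to 10.996, 10.96 and 10.79 (log2 change -0.33, SE 0.08, limma adjusted p = 0.0472). This call was lost without any of the 3 controls, without mutant 1 or without mutant 2, when all 18064 probe sets were fitted, and with Xist as a covariate. The other box H/ACA core genes did not pass: Nhp2 stood at -0.33 (limma adjusted p = 0.0532), Gar1 at -0.42 (limma adjusted p = 0.201) and Nop10 at -0.03. Of the 4 box H/ACA core probe sets, with Dkc1, limma gave 3 lower and 0 higher at an unadjusted p under 0.05. All 8 probe sets of the box C/D core genes had a negative change and 0 passed limma's threshold, with 1 lower and 0 higher at an unadjusted p under 0.05. The lower one was a probe set of Snu13, at -0.16. Over all probe sets, 11.4% were lower and 11.4% higher at that unadjusted threshold. The 8 ranged from -0.44 for Nop58 to -0.11 for Fbl, which encodes fibrillarin.

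Assembly factors (10 of 11 measured) had 0 calls by limma, with 1 lower and 0 higher at an unadjusted p under 0.05, and a median of -0.07, with Rpap3 at -0.42 (limma adjusted p = 0.170). Cajal body genes (8 measured) likewise had 0 calls by limma, with 1 lower and 0 higher at an unadjusted p under 0.05, and a median of -0.10, with Coil, which encodes coilin, at -0.16 and Smn1 at -0.22. Genes for intron opening and trimming (9 genes, 10 probe sets) also had 0 calls, with 3 lower and 1 higher at an unadjusted p under 0.05. Among them the nuclear exonuclease gene Xrn2 stood at -0.29 (limma adjusted p = 0.0729) and the lariat debranching enzyme gene Dbr1 at -0.05. The 2 probe sets of the exosome gene Exosc3 opposed each other, at 0.46 and -0.34, both not passing. At an unadjusted p under 0.05, limma gave 11.4% of all probe sets lower and 11.4% higher.

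Other small structured RNAs, most of which have their own promoters, gave 0 calls over 9 probe sets of 8 genes, with a median of 0.02, and 0 lower and 1 higher at an unadjusted p under 0.05. Among all probe sets 3.08% fell and 2.88% rose, and 11.4% were lower and 11.4% higher at the unadjusted threshold. With only 9 probe sets, these counts lie near those shares and are not read as a result. Rnu3a, a U3 box C/D RNA that the name rule leaves out, read 8.46, 8.71 and 8.87 in controls and 9.35, 9.24 and 8.92 in mutants. Its mutant values lay above every control without passing (log2 change 0.49, SE 0.14, limma adjusted p = 0.0826). Terc, the telomerase RNA, which carries a box H/ACA domain, read 11.98, 12.11 and 12.15 against 12.22, 12.16 and 12.61 and did not pass either (log2 change 0.25, 95% interval -0.03 to 0.53). Rnu12 of the minor spliceosome stood at 0.25 (95% interval -0.06 to 0.55), Rmrp at -0.11 and the Y RNAs Rny1 and Rny3 at -0.13 and -0.07. Both probe sets of Rn7sk, the regulator of transcription elongation, were level, at 0.02 and -0.01 (SE 0.06 each).

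**Figure D5:**
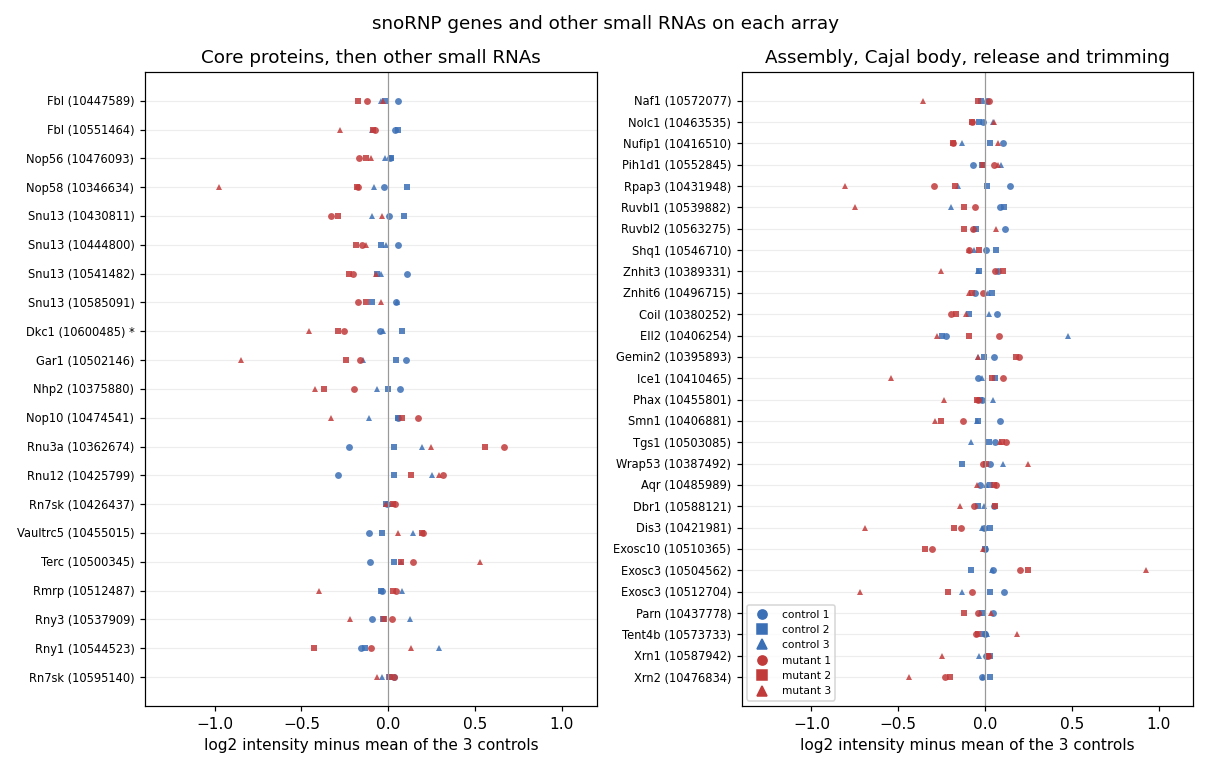
Log2 intensity of snoRNP core genes and other small RNAs (left) and of assembly, Cajal body and trimming genes (right) on each control (blue) and mutant (red) array, minus the control mean (x axis); numbers are probe sets, and stars stand for an adjusted p below 0.05. Most red points lie near the controls, Dkc1 is the starred gene at -0.33, and Rnu3a lies to the right at 0.49.

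A further 20 probe sets pair a snoRNA with another symbol and are no members. They were fitted with all 18064 probe sets, of which 2.92% fell. Of these 20, 3 fell, 1 rose and 17 had a negative change, with a median of -0.43. Those that fell pair Snora65 with Rpl12, Snord14a with Rps13, and Snord68 with Rpl13, and the one that rose pairs Snord7 with AI450353 (log2 change 0.74, limma adjusted p = 0.0146). The 6 probe sets of the brain-enriched Snord116 cluster ran from -0.46 to 0.23 with 0 calls by limma, and 2 lower and 2 higher at an unadjusted p under 0.05.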

How the data were processed

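Total RNA of 3 control and 3 mutant pools was read on 1-colour mouse gene arrays. The deposited table holds linear intensity values per probe set, normalized by the authors with RMA per the submitters' processing notes; their log2 was computed here. No other step is given in the sources used here. Of 18064 probe sets, 16311 with 1 gene symbol in the platform annotation were fitted, 734 with several and 1019 with none were left out. Genotype was tested with limma 3.58.1 (lmFit, eBayes) in R 4.3.3, with Benjamini-Hochberg adjustment over all 16311 and a call at an adjusted p under 0.05. In data simulated for this comparison over 16311 probe sets, 48% of changes of 0.5 log2 units and 90% of 1 were recovered. For changes of 1.5 or 2 log2 units it was 100%, with 50 changed probe sets at each size. These rates describe the simulated data and need not hold for the members. In the real data the root mean square distance from the group mean was 0.189 for mutant 3 and 0.0779 to 0.115 for the other arrays. P-values set the difference between genotypes against the spread between pools, moderated over all 16311 probe sets. The number of pools limits the precision.

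The members and gene lists were chosen with earlier results of these data known. Named genes were the 5 given markers, members that passed, the 4 nearest the threshold, scaRNAs, the 3 highest and 3 lowest in mean reading, those that share a host or have more than 1 probe set, their hosts, and listed partner genes and other small RNAs that passed or were among up to 4 with the smallest p of their group. Snord104, Snord118, Snord14e, Snord8, Snord53, Snora33, Snora20, Snora2b, Snora23, Snora7a, Fbl, Dbr1, Rmrp, Rny1, Rny3 and Rn7sk fall outside this rule and were chosen after their values were seen. Hosts were to lie on the strand of the snoRNA, but the RefSeq table holds no strand, so containment alone was checked. Sequences of the snoRNAs themselves were not used here, and 1 pair of snoRNAs that share a host is not reported here. Marker lists not given in the report had these summed intensities: neural tube 661 to 740 in controls and 712 to 758 in mutants, somite 1221 to 1613 and 907 to 1371, ectoderm and gut 889 to 1008 and 779 to 966, and presomitic 15352 to 16736 and 19365 to 21837.

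Alternatives were another normalization, centring, level filter, set of probe sets, variance moderation, array weights, threshold, Xist covariate and replicate block, and each array left out.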

Additional observations from a re-analysis of the deposited data

How the results depend on the processing

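Direction held more firmly than calls. Between 50 and 53 of the 55 members had a negative change in each setting that kept all of them (46 of 49 with the filter on mean reading), 0 members rose in any, and their median change stayed between -0.66 and -0.44. Against 22 of 55 members that fell, limma called 42 with array weights, 4 at an adjusted p under 0.01, 39 without control 3 and mutant 3, and 2 to 36 with 1 array left out. Against 9 box C/D probe sets it called 22 with array weights, 3 at 0.01, 17 at 0.10, 21 without control 3 and mutant 3, and 2 to 19 with 1 array left out. Against 13 box H/ACA probe sets it called 1 at 0.01, 8 with Xist as a covariate, and 0 to 17 with 1 array left out. The background moved as well, with 0.166% to 6.72% of all probe sets called lower when 1 array was left out. It was 7% without control 3 and mutant 3 and 11.9% with array weights. Snord52 and Snord49a passed without any of the 6 arrays. Against 1 lower and 0 higher among the snoRNP genes, limma called 2 lower after quantile normalization, median centring or the filter, 0 over all probe sets, at 0.01 or with Xist, 3 at 0.10, 13 lower and 2 higher with array weights, 8 without control 3 and mutant 3, and 0 to 5 lower with 1 array left out. Scarna13 changed sign with array weights (-0.19) and without control 1 (-0.07), control 2 (-0.26) or mutant 3 (-0.33), and ran from -0.33 to 0.59 with 1 array left out. The cause was not tested.

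Deviations of same-numbered pools correlated at 0.13, 0.08 and 0.32, and control 1 correlated best with mutant 2, so the numbers were not taken to pair the samples. With the replicate block limma called 27 members lower, 14 box C/D and 13 box H/ACA probe sets and 2 snoRNP probe sets, and 21 of the 22 members were called again.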
